A study of Mus musculus with 4 samples.

Results

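Full-length TAF3 and its PHD finger alone, both carrying the M880A substitution, were compared by the places where each directed integration of an HIV-based vector. The comparison takes 2 of the 4 libraries of the series, chosen by their labels and not by a measured value, with 39292 distinct integration sites for the full-length form (Full M880A) and 34888 for the isolated finger (PHD M880A). Together these are 74180 of 122029 sites in the series. A site is a distinct combination of chromosome, strand and junction position in the mouse build mm9.

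TAF3 is a subunit of TFIID, the general transcription factor that nucleates the preinitiation complex at promoters. Its PHD finger, a small zinc-binding domain, reads trimethylated lysine 4 of histone H3, a mark of active promoters, and M880A is a substitution in that finger made to weaken this reading. The full-length protein also carries a histone-fold domain, through which it joins other TFIID subunits, whereas the isolated finger lacks it. LEDGF/p75, the product of Psip1, normally tethers HIV integrase to chromatin through its integrase-binding domain. In its absence a fusion that carries this domain can take over the tethering, and clusters of integration sites can then mark places of frequent contact.

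Both groups were mouse embryonic fibroblasts, the E2 MEF-KO line of genotype Psip1 (-/-) and strain C57BL/6, and the labels give no age. Each received a plasmid for a TAF3 fusion by nucleofection, Full with M880A in one and PHD with M880A in the other, was sorted for GFP after 24 to 36 h, and was harvested 48 to 72 h after infection. Expression was thus transient and from a plasmid, and a library without a TAF3 fusion was not used here. WT libraries of both lengths were made in the same way and serve below only to rank regions and to place counts. With 1 library in each group, replicate error cannot be measured, no p-value is given, and every statement compares these libraries and not the conditions. Intervals are exact 95% intervals that cover counting error only. They treat sites as independent, although sites within a cluster share their place, and they are therefore too narrow for crowded sites.

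The M880A libraries were similar in the median depth per site, but Full M880A had more sites of very many reads. Their sites carried 3651264 reads for Full M880A and 2085037 for PHD M880A, with a median of 24.0 reads per site (quartiles 5 and 90) and 23.0 (quartiles 7 and 65), and means of 92.9 and 59.8. Sites with the minimum of 2 listed reads made up 11.7% and 10.2%, and 49.9% and 50.0% of sites lay on the plus strand. The libraries were separate lanes of 1 flow cell and had 25 identical positions, 0.0636% of Full M880A and 0.0717% of PHD M880A sites. The Full M880A list was 12.6% longer. Shares that grow with the length of a list are therefore given at equal length, as the exact expectation after leaving out 4404 sites of Full M880A at random.

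Full M880A sites stood closer together than PHD M880A sites. At equal length, 20.04% of the Full M880A sites had another site of their own library within 1 kb, against 8.89% in PHD M880A, a ratio of 2.25 and a difference of 11.2 percentage points. Among all listed sites the counts were 8364 of 39292 (21.3%, 20.9 to 21.7) and 3101 of 34888 (8.89%, 8.59 to 9.19). The gap opened with distance up to 2 kb and narrowed beyond it. The shares were 6.54% and 3.13% within 100 bp, 15.2% and 6.05% within 500 bp, 25.6% and 13.2% within 2 kb, and 43.0% and 35.0% within 10 kb. The ratio of these shares fell from 2.51 at 500 bp to 1.23 at 10 kb.

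Positions a few bp apart made up a larger part of the PHD M880A value. On the same strand, 450 pairs of Full M880A sites and 334 pairs of PHD M880A sites lay 1 to 3 bp apart, and within 10 bp the shares with a neighbour were nearly level, at 2.65% and 2.10%. After same-strand positions within 10 bp were merged, 38795 and 34539 sites were left, and 18.3% and 7.06% of them had a neighbour within 1 kb, a ratio of 2.60. Whether such pairs are 1 integration read at neighbouring bases was not tested. Opposite-strand pairs in which the minus-strand site lay 4 bp to the right of the plus-strand site numbered 32 in Full M880A and 8 in PHD M880A, and the mirrored arrangement 4 and 0. HIV integrase joins the vector ends to the target strands with a stagger of 5 bases, which is the overlap of such a pair.

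The difference had the same direction on each chromosome. Chromosome by chromosome, with Full M880A thinned to the same fraction, the Full M880A share with a neighbour within 1 kb was higher on 20 of 20 chromosomes. Lists were thus of equal length over the genome but not on each chromosome. It ran from 11.4% on chromosome X to 29.7% on chromosome 17, whereas the PHD M880A share ran from 4.20% on chromosome 14 to 12.2% on chromosome 11. The ratio was lowest on chromosome 12, at 1.43 (14.3% and 10.0%), and highest on chromosome 9, at 3.61 (21.0% and 5.81%). Chromosome 17 (29.7% and 9.45%) and chromosome 19 (28.1% and 12.0%) were among the most crowded in Full M880A, but only chromosome 19 was also near the top in PHD M880A. The chromosomes thus differed more among themselves in Full M880A than in PHD M880A in percentage points.

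**Figure D1:**
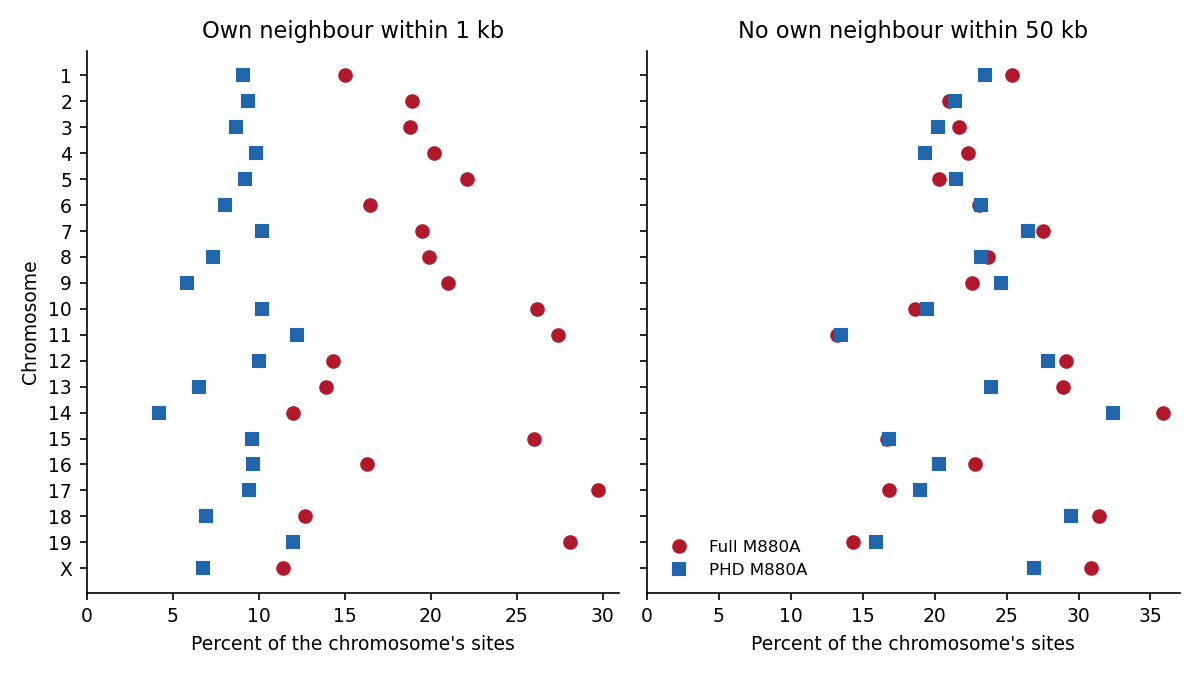
For each chromosome (vertical axis), the percent of sites with an own-library neighbour within 1 kb (left) and with none within 50 kb (right), for Full M880A (circles) and PHD M880A (squares) at the same fraction of the Full M880A list; each point is 1 library. The circles lie to the right of the squares on 20 of 20 chromosomes on the left, and on 11 of 20 on the right. Lists are not of equal length on single chromosomes.

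The density of neighbours showed at which distance the libraries parted. Between 100 and 200 bp from a site, Full M880A had 0.257 own neighbours per kb and PHD M880A 0.0536, a ratio of 4.80, where the mean density over the 2570 Mb between the outermost sites was 0.0136 per kb. Between 1 and 2 kb the densities were 0.140 and 0.0384 per kb (ratio 3.63), and between 5 and 10 kb they were 0.0347 and 0.0218 per kb (1.59). Both curves then flattened. From 10 to 20 kb up to 200 to 500 kb the ratio moved only from 1.33 to 1.23, with densities of 0.0273 and 0.0206 per kb at the near end and 0.0198 and 0.0161 at the far end. Both libraries thus had a short scale of a few kb and a broad one that reached past 1 Mb.

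On the broad scale, Full M880A again stood further above the mean. Between 500 kb and 1 Mb its neighbour density was 1.31 times the mean and that of PHD M880A 1.12 times, and between 1 and 2 Mb the values were 1.19 and 1.05. Between 2 and 5 Mb PHD M880A was at 1.01 times the mean, with Full M880A at 1.07. The density of PHD M880A sites around Full M880A sites lay between the curves in most classes. It was above the density of PHD M880A sites around PHD M880A sites in 15 of 17 distance classes, the exceptions being those below 50 bp. Between 100 and 200 bp, for example, there were 0.0714 PHD M880A sites per kb around a Full M880A site and 0.0536 around a PHD M880A site.

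**Figure D2:**
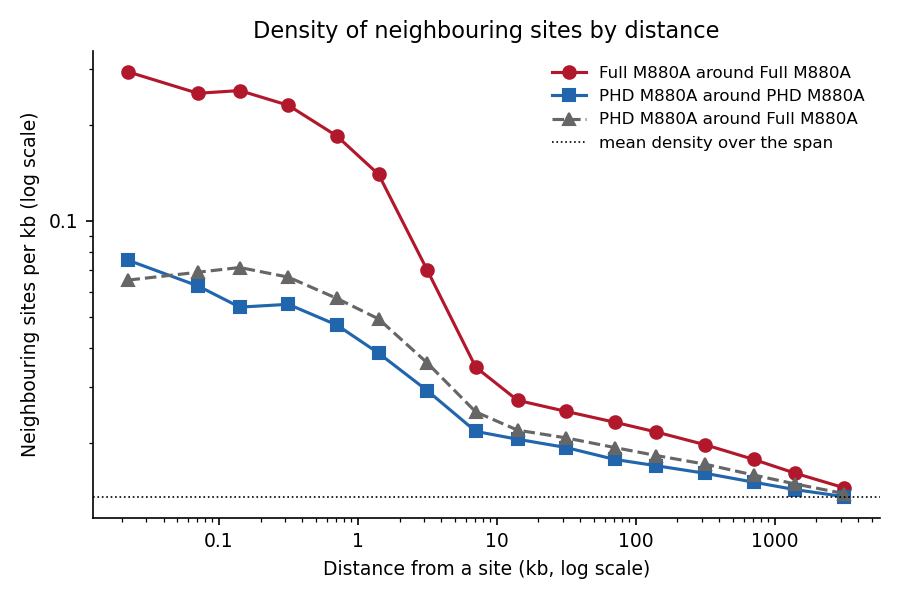
Neighbouring sites per kb (vertical axis, log scale) against distance from a site in kb (horizontal axis, log scale), from 10 bp to 5 Mb with both lists scaled to 34888 sites; the dotted line is the mean density of 0.0136 per kb. Full M880A lies above PHD M880A throughout, by 4.80 times between 100 and 200 bp and 1.06 times between 2 and 5 Mb.

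Proximity between the libraries was measured in the same way. Of the Full M880A sites, 9.22% (8.94 to 9.51) had a PHD M880A site within 1 kb, compared with 20.04% that had an own neighbour. Of the PHD M880A sites, 7.40% had a Full M880A site within 1 kb at equal length (8.02%, 7.74 to 8.31, among all sites), compared with 8.89% that had an own neighbour. At 50 kb these contrasts had closed, with 79.8% of Full M880A sites near a PHD M880A site and 77.6% near another Full M880A site, and with 74.3% and 78.1% in the same order for PHD M880A. The full-length form was therefore the more crowded of the pair at short range. At 50 kb most sites had a neighbour of any kind, so these shares say little about where the lists lay.

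Residual focal targeting was described through foci, runs of at least 5 sites of 1 library with gaps of at most 1000 bp. Whether such runs also form without a TAF3 fusion was not tested. Full M880A had 336 foci that held 2519 sites, 6.41% (6.17 to 6.66) of the library. PHD M880A had 29 foci with 219 sites, 0.628% (0.548 to 0.716). The share of sites in foci was 10.2 times higher in Full M880A (8.89 to 11.8). With the Full M880A list brought to the length of the other by leaving out sites at equal steps, it had 262 foci and the ratio of shares was 8.60 (7.47 to 9.94). Foci of at least 10 sites numbered 65 and 4, and those of at least 15 sites 19 and 3. Single sites with no own neighbour in a 1000 bp gap made up 78.7% of Full M880A and 91.1% of PHD M880A, and sites in pairs 9.49% and 7.13%.

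The median focus held 6.00 sites in each library, a value that the minimum of 5 sites holds low, since 35.7% and 27.6% of foci had exactly 5. The median width was 1590 bp in Full M880A (268 to 6185) and 1915 bp in PHD M880A (1012 to 4259). The sites of foci lay on both strands, with 51.4% and 49.3% on the plus strand. Their read numbers were close to those of other sites, with a median of 26.0 for the sites in Full M880A foci against 24.0 for all sites, and 24.0 against 23.0 in PHD M880A. The foci covered 628 kb and 60.5 kb, or 0.0244% and 0.00236% of the span.

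Foci of Full M880A were found on 20 of 20 chromosomes, and those of PHD M880A on 14. Chromosomes 11, 10, 15 and 17 had the most in Full M880A, with 35, 34, 31 and 28, and chromosome X had 2. In PHD M880A, chromosome 3 had 4, chromosomes 11, 15, 17 and 19 had 3 each, and chromosomes 5, 6, 9, 12, 14 and 18 had none, where Full M880A had 24, 14, 16, 7, 4 and 1.

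The focus with the most Full M880A sites lay on chromosome 17, positions 34253713 to 34258896. It held 28 Full M880A and 4 PHD M880A sites, with 17 in Full WT and 16 in PHD WT. On chromosome 4, positions 135697435 to 135703619 held 25 and 2 M880A sites, in the order full-length and finger alone, with 8 Full WT and 15 PHD WT sites. On chromosome 19, positions 46574767 to 46580457 held 24 and 0, with 12 and 11 WT sites. The first and second of these kept a few PHD M880A sites and the third had none.

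On chromosome 5, positions 123587554 to 123593498 held 23 Full M880A sites and 1 PHD M880A site, beside 14 and 24 WT sites. Positions 143575175 to 143578909 on the same chromosome held 23 and 5, beside 12 and 31. On chromosome 9, positions 63865632 to 63870609 held 23 and 0, beside 7 and 5 WT sites. All of these places also held sites of both WT libraries.

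On chromosome 10, positions 127101151 to 127106114 held 23 Full M880A sites and 1 PHD M880A site, and 1 of the former carried 2340 of the 4824 reads. On chromosome 11, positions 120046453 to 120050567 held 22 and 4. The Full M880A counts chose these foci and are a description, and the PHD M880A counts did not enter the choice. Of the 8 foci with the most Full M880A sites, 2 held no PHD M880A site. The share difference between the libraries was largest, over the foci of both lists, at foci chosen by Full M880A: the 8 largest were all of this kind and included 6 of those above. The other two were on chromosome 15, positions 102500632 to 102504525 with 19 Full M880A sites and 0 PHD M880A sites, and positions 78671761 to 78675711 with 19 and 1. At the former, PHD WT had 1 site and Full WT 6.

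The fullest PHD M880A focus was also a focus of Full M880A. On chromosome 19, positions 5799398 to 5802304 held 23 PHD M880A and 15 Full M880A sites, with 14 in PHD WT and 15 in Full WT. A second PHD M880A focus lay next to it, at positions 5796217 to 5798098, with 9 PHD M880A sites and 1 Full M880A site, and 2 in each WT library. A further one on the same chromosome, named after its values were seen, lay at positions 5841372 to 5843994 and held 6 and 7. This stretch of chromosome 19 was thus used by all libraries, and its first 2 foci differed in how much Full M880A shared them.

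The other PHD M880A foci differed in how many Full M880A sites they held. On chromosome 1, positions 162965616 to 162968444 held 15 PHD M880A and 2 Full M880A sites, beside 8 Full WT and 3 PHD WT sites. On chromosome 11, positions 86396843 to 86400686 held 15 and 6, beside 7 and 15. On chromosome 4, positions 88578910 to 88583168 held 11 and 6, beside 3 and 9. The latter 2 overlapped Full M880A foci of 5 sites each, whereas that on chromosome 1 overlapped none.

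On chromosome 1, positions 164149253 to 164151513, on chromosome 7, positions 80700587 to 80701856, and on chromosome 16, positions 23108420 to 23110334, there were 8 PHD M880A sites each. Full M880A had 1, 0 and 1 sites there. Of the 29 PHD M880A foci, 5 held no Full M880A site, 6 held 1, and 14 held at least 3.

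Overlap between the focus lists was small as a share of the longer list, a share that the length of the shorter list limits. It joined 10 of the 336 Full M880A foci (2.98%) and 10 of the 29 PHD M880A foci (34.5%). Full M880A foci covered 0.0244% of the span and held 0.705% of PHD M880A sites (0.620 to 0.799), 28.9 times the covered share. PHD M880A foci covered 0.00236% and held 0.214% of Full M880A sites (0.171 to 0.265), 90.8 times. Of the Full M880A foci, 124 (36.9%) held at least 1 PHD M880A site and 212 held none, including 25 of the 65 foci with at least 10 Full M880A sites. In the other direction, 24 of the 29 PHD M880A foci (82.8%) held at least 1 Full M880A site, or 80.2% at equal length. The share of the library was higher in PHD M880A at 1 of the 336 Full M880A foci, on chromosome 19 at positions 5799013 to 5802299 (22 PHD M880A and 16 Full M880A sites). Full M880A had the higher share at 2 of the 29 PHD M880A foci. Each list was chosen by the crowding of its own library, so a higher share of that library at most of its foci is built in.

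**Figure D3:**
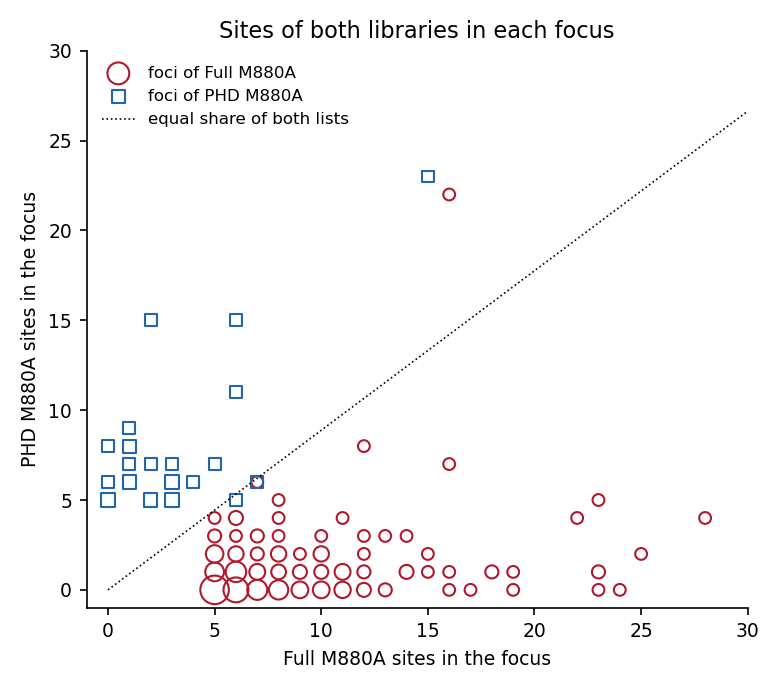
Number of PHD M880A sites (vertical axis) against Full M880A sites (horizontal axis) in each focus of Full M880A (circles) and of PHD M880A (squares); larger symbols stand for more foci at the same counts, and the dotted line marks equal shares of both lists. Of the 336 circles 212 lie at 0 PHD M880A sites, whereas 5 of the 29 squares lie at 0 Full M880A sites.

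Even so, the foci of one form were places of raised density for the other. Within 1 kb of the midpoints of Full M880A foci there were 0.327 PHD M880A sites per kb and focus, 24.1 times the mean density. This fell to 0.201 per kb between 1 and 2 kb and to 0.0397 per kb between 10 and 20 kb, so that the centre was 8.24 times as dense as that flank. The flank itself was 2.93 times the mean. Around PHD M880A foci, Full M880A had 1.12 sites per kb and focus within 1 kb, at equal length, 82.3 times the mean and 19.7 times the density between 10 and 20 kb (0.0566 per kb). With 29 foci this last profile rested on 73 sites within 1 kb and 37 between 10 and 20 kb. PHD M880A sites were therefore not evenly spread around the full-length foci, although most of these foci held none.

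**Figure D4:**
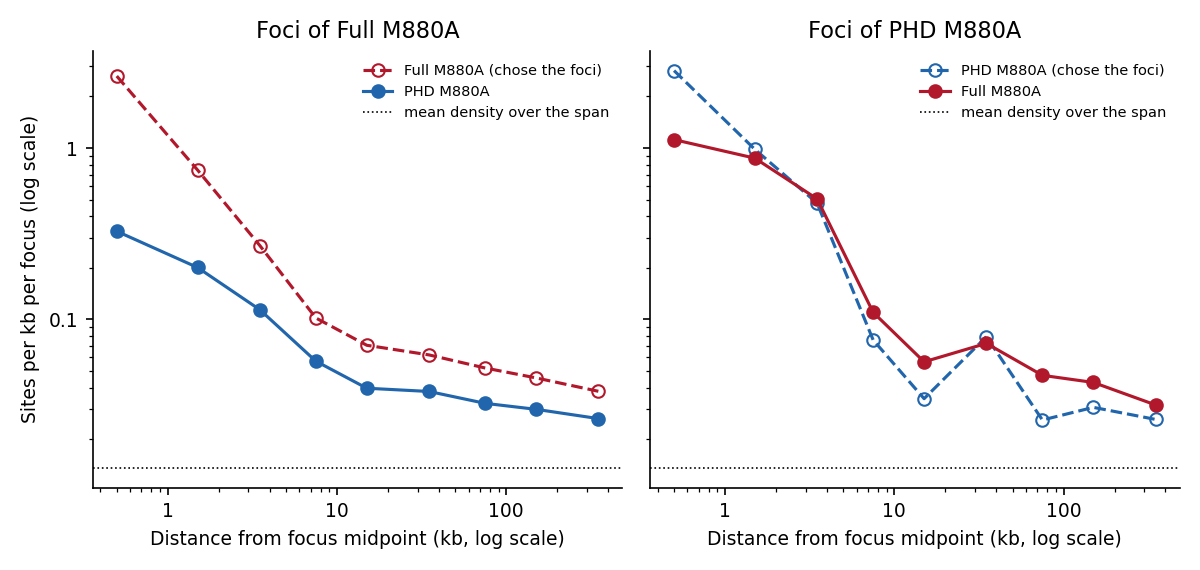
Sites per kb and focus (vertical axis, log scale) by distance from the focus midpoint in kb (horizontal axis, log scale), around the 336 foci of Full M880A (left) and the 29 foci of PHD M880A (right), with all lists scaled to 34888 sites; dashed lines show the library that chose the foci, and the dotted line is the mean density of 0.0136 per kb. The library that did not choose the foci falls from 0.327 to 0.0397 per kb on the left and from 1.12 to 0.0566 per kb on the right between the centre and 10 to 20 kb.

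Foci of the WT libraries gave places that neither M880A library chose. PHD WT had 1222 foci by the same rule, widened here by 500 bp on each side. They held 2584 Full M880A sites, 6.58% of the library, and 858 PHD M880A sites, 2.46%, a ratio of 2.67 (2.47 to 2.89). At equal length, at least 1 Full M880A site was found in 68.5% of them and at least 1 PHD M880A site in 39.4%. Among all listed sites, 876 (71.7%) held Full M880A and 482 PHD M880A. Both were found in 374, Full M880A alone in 502, PHD M880A alone in 108 and neither in 238 (19.5%). The full-length form was thus found at more of the places that the WT finger had crowded.

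The excess of Full M880A held in each class of WT focus size. In the 324 PHD WT foci of 5 sites the ratio of shares was 2.75 (2.23 to 3.42), in the 197 foci of 8 or 9 sites 3.38 (2.78 to 4.14), and in the 64 foci of at least 15 sites 2.10 (1.74 to 2.55). The mean number of Full M880A sites per focus, at equal length, was 0.995 in the smallest class and 5.12 in the fullest, and that of PHD M880A sites was 0.361 and 2.44. Both forms thus had more sites per focus where the WT finger had more. These counts are per focus and not per kb, and the width of the WT foci was not taken into account. The 445 Full WT foci held 4.05% of Full M880A and 1.14% of PHD M880A sites, a ratio of 3.54 (3.17 to 3.96), with at least 1 site in 81.8% and 45.2% of them at equal length. Full WT came from another flow cell than the other libraries. Of the Full M880A foci, 293 of 336 (87.2%) held a WT site, as did 27 of the 29 PHD M880A foci (93.1%).

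Preference at the megabase scale was read from 2560 windows of 1 Mb with a site of any library. Both M880A libraries had a median of 13.0 sites per window. The spread was wider in Full M880A, where the 5th and 95th percentiles were 4 and 34 sites and the maximum 203, against 4, 26 and 99 in PHD M880A. The fullest 10% of its own windows held 27.2% of the Full M880A sites and 21.1% of the PHD M880A sites. The fullest windows that together hold 50% of the sites numbered 670 in Full M880A and 787 in PHD M880A. Across windows the counts had a Pearson correlation of 0.717 (0.712 without the sites of foci), given as a description over windows that share chromosomes and mappable length.

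The windows were then ranked by their share of sites in the WT libraries and divided into 10 classes of 256. In the highest class, Full M880A had 25.3% of its sites (24.9 to 25.8, Wilson interval) and PHD M880A 19.0% (18.6 to 19.4), a ratio of 1.33 (1.29 to 1.38). In the next class the shares were 13.8% and 13.2%, a ratio of 1.04 (1.00 to 1.08). Below that PHD M880A had the higher share in each class, with ratios of Full M880A to PHD M880A from 0.837 (0.791 to 0.886) in the third class from the bottom upwards. In the lowest class the shares were 4.29% and 4.65% (ratio 0.923, 0.862 to 0.989). For comparison, the highest class held 37.3% of Full WT and 39.3% of PHD WT sites, but these libraries set the ranking, so their shares there are high by construction. The M880A libraries did not set it. From class 1, the lowest, to class 8 their shares rose by similar amounts, from 4.29% to 11.3% in Full M880A and from 4.65% to 11.9% in PHD M880A. The rise into the highest class was steeper in Full M880A, from 13.8% to 25.3%, against 13.2% to 19.0% in PHD M880A.

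Foci made up a part of this. They lay mostly in the highest class, which held 226 of the 336 Full M880A foci (67.3%) and 20 of the 29 PHD M880A foci (69.0%). When the sites in foci of either library were left out, 36742 and 34479 sites remained. Their shares in the highest class were 22.1% and 18.3%, and the ratio was 1.20 (1.17 to 1.24). In the lowest class the ratio was then 0.975 (0.911 to 1.04), and in the third class 0.886 (0.837 to 0.938). A smaller difference in the dense windows was therefore also present outside foci. The sites outside foci still include runs of 3 and 4 sites, which held 3.44% and 1.94% of Full M880A and 0.825% and 0.310% of PHD M880A.

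**Figure D5:**
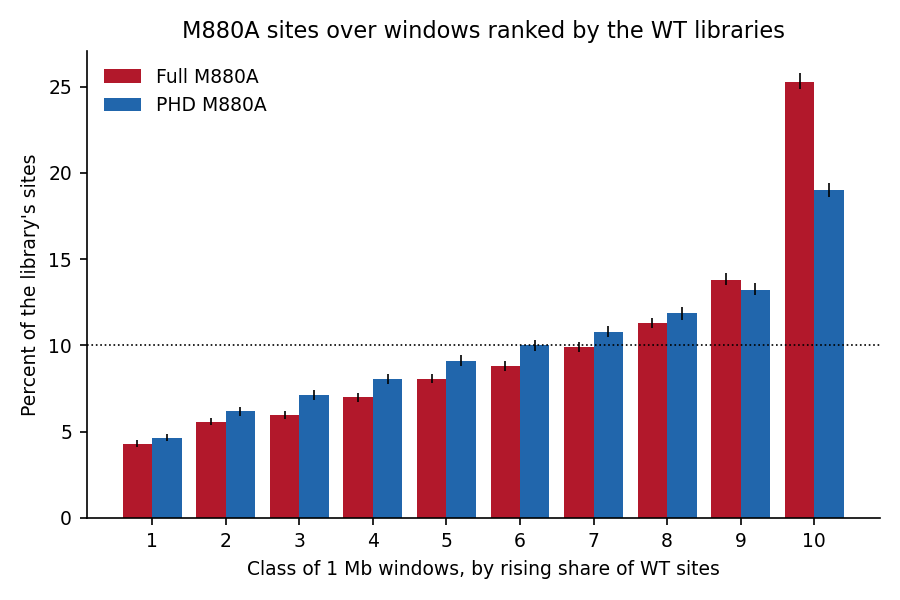
Percent of the sites of Full M880A and PHD M880A (vertical axis) in 10 classes of 1 Mb windows ordered by rising share of WT sites (horizontal axis), with 95% Wilson intervals; the dotted line is an even spread over classes. In class 10 Full M880A reaches 25.3% and PHD M880A 19.0%, and from class 1 to class 8 PHD M880A is the higher.

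Single windows were compared by the ratio of their site shares. The comparison took the 1808 windows in which the libraries had 20 or more sites together. The share was at least 2 times higher in Full M880A in 91 (5.03%) and at least 2 times higher in PHD M880A in 132 (7.30%). The exact interval of the ratio excluded 1 in 59 of the 91 and 70 of the 132, with no adjustment for the number of windows. Those windows were picked by the same ratio, so these counts are largely built in. Over all 1808 windows the interval lay above 1 in 90 and below 1 in 75. With 40 or more sites together, 38 and 6 windows had a share at least 2 times higher, and with windows of 5 Mb 2 and 0. Of all 1808 windows, 14.2% were in the highest WT class, 33.4% in the lower 5 classes, and 13.1% held a focus of either library. Of the windows with the higher Full M880A share, 33.0% were in the highest class, 20.9% in the lower 5, and 44.0% held a focus. For the higher PHD M880A share these were 1.52%, 53.8% and 0.758%. The latter windows had a lower median of sites over the pair than those with the higher Full M880A share, and than all that entered. With fewer sites, a ratio of 2 is reached more easily by counting error. The median number of sites per window also rose with WT class in both libraries. The class shares of these windows therefore do not separate regional preference from site number. The shares of windows with a focus are partly built in. Of the foci, 336 were of Full M880A and 29 of PHD M880A, and the sites of a focus also count in the share of its own window. A Full M880A focus thus raises the Full M880A share there, so the contrast of 44.0% and 0.758% is a description only. With windows of 500 kb the order of the counts turned, to 128 with the higher Full M880A share and 64 with the higher PHD M880A share. Among sites with at least 10 reads they were 75 and 68. The number of windows that entered was not counted under any of these alternatives. Their counts are therefore not shares, and the turn in order cannot be judged against all windows.

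The windows with the highest ratios were taken in order and are a description. On chromosome 5, the window from 141000001 to 142000000 held 36 Full M880A and 6 PHD M880A sites, a ratio of shares of 5.33 (2.22 to 15.5), and 2.97 outside its 2 Full M880A foci. On chromosome 1, that from 156000001 to 157000000 held 22 and 4 sites (4.88, 1.66 to 19.5) and had no focus. On chromosome 4, that from 139000001 to 140000000 held 36 and 9 (3.55, 1.68 to 8.38), also without a focus. Of the 10 highest windows, 4 had no focus, so that their excess lay outside foci. The fullest of the 10 spanned 80000001 to 81000000 of chromosome 10 and held 176 Full M880A and 51 PHD M880A sites (3.06, 2.23 to 4.27), 10 Full M880A foci and a ratio of 2.02 outside them.

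At the other end, the window on chromosome 15 from 34000001 to 35000000 held 6 Full M880A and 27 PHD M880A sites (0.197, 0.0666 to 0.488). On chromosome 14, that from 37000001 to 38000000 held 5 and 20 (0.222, 0.0651 to 0.610), and on chromosome 11, that from 43000001 to 44000000 held 6 and 23 (0.232, 0.0771 to 0.585). None of the 10 lowest windows held a focus of either library. They had 8 or fewer Full WT sites and 18 or fewer PHD WT sites each, and lay in the third to the eighth WT class. The PHD M880A excess in them lay outside foci.

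The fullest windows were largely common to both libraries. The fullest of Full M880A, on chromosome 10 from 79000001 to 80000000, held 203 Full M880A and 64 PHD M880A sites (2.82, 2.12 to 3.79), 11 Full M880A foci and no PHD M880A focus. Outside foci the ratio there was 1.55. The fullest of PHD M880A, on chromosome 19 from 5000001 to 6000000, held 145 and 99 (1.30, 1.00 to 1.70), with 8 and 3 foci. The next fullest of PHD M880A, on chromosome 11 from 86000001 to 87000000, was one with the higher PHD M880A share, at 43 and 69 sites (0.553, 0.369 to 0.821), with 2 foci of each library. Of the 5 fullest windows of each library, 3 were in common.

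Whole chromosomes differed little. The ratio of the Full M880A to the PHD M880A share of sites ran from 0.828 (0.770 to 0.891) on chromosome 13 to 1.15 (1.06 to 1.25) on chromosome 19. The interval lay above 1 on 6 chromosomes (8, 10, 11, 15, 17 and 19) and below 1 on 5 (1, 4, 13, 14 and X). Chromosome X held 4.62% of Full M880A and 5.17% of PHD M880A sites (0.894, 0.837 to 0.955).

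Lone sites, those with no other site of their own library within 50 kb, were about as frequent in both libraries. At equal length they made up 22.4% of Full M880A and 21.9% of PHD M880A sites, a ratio of 1.02 (0.990 to 1.06). Among all sites there were 7732 (19.7%, 19.3 to 20.1) and 7645 (21.9%, 21.5 to 22.4). The order turned with distance. With no neighbour within 10 kb the shares were 57.0% and 65.0%, within 20 kb 43.9% and 47.6%, within 100 kb 8.62% and 7.48%, and within 200 kb 1.60% and 1.31%. Full M880A thus had more sites with a close neighbour and, at 100 and 200 kb, slightly more that stood apart. Within 500 kb the shares at equal length were 0.0642% and 0.0487%, from 17 sites of each library among all listed sites. Full M880A had the higher share of lone sites on 11 of 20 chromosomes, by the largest margin on chromosome 13 (28.9% and 23.9%). The list was thinned by 1 fraction for all chromosomes, so single chromosomes were not at equal length. Chromosome 13 had the lowest ratio of Full M880A to PHD M880A site shares, 0.828, and fewer sites give more lone ones. The chromosome values therefore do not separate lone sites from site number. The distance to the nearest own site, among all sites, was 1.58 kb, 13.0 kb and 39.8 kb at the quartiles of Full M880A and 5.77 kb, 18.4 kb and 44.3 kb at those of PHD M880A.

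Within each library, lone sites had read numbers close to those of all sites. Their median was 23.0 reads in Full M880A and 22.0 in PHD M880A, with upper quartiles of 88.2 and 65 that differed as those of all sites did, and 11.7% and 9.64% of them had 2 reads, close to the 11.7% and 10.2% of all sites. They lay in sparse regions in both libraries. The lower 5 WT classes held 55.4% of lone Full M880A and 53.3% of lone PHD M880A sites, against 30.9% and 35.1% of all sites, and the highest class held 5.88% and 7.33%. Chromosome X held 6.44% and 6.34% of them.

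Being lone in one library did not mean being far from the other. Of the lone Full M880A sites, 65.0% had a PHD M880A site within 50 kb, compared with 83.4% of the sites that were not lone. Of the lone PHD M880A sites, 61.5% had a Full M880A site within 50 kb at equal length, compared with 77.9%. Sites without a neighbour in either M880A library within 50 kb numbered 2704 in Full M880A (6.88%, 6.63 to 7.14) and 2640 in PHD M880A (7.57%, 7.29 to 7.85). Those without a neighbour in any of the 4 libraries numbered 1717 (4.37%) and 1618 (4.64%).

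The most isolated sites were few. The farthest Full M880A site from any other M880A site was on the minus strand of chromosome X at position 28724245, with 5 reads and 1661 kb to the nearest. The next was on chromosome 7 at position 9667334, with 33 reads and 1056 kb. In PHD M880A the farthest was on chromosome 12 at position 22849580, with 10 reads and 1192 kb, followed by 2 sites on chromosome X at positions 121236959 (1145 kb) and 26208758 (1093 kb). Site-free stretches were also shared. The longest was on chromosome 7 in both libraries, from 39055629 to 46798202 in Full M880A (7.74 Mb) and from 39056076 to 46717229 in PHD M880A (7.66 Mb). The second longest, 3.79 Mb and 4.28 Mb, lay on the same chromosome, from 20380796 and from 20576241, and the third, 3.76 Mb and 4.18 Mb, on chromosome X. Stretches over 1 Mb numbered 34 and 36. Unsequenced and repeated parts of mm9 were not separated from these, so whether the stretches lack integration or only mapped reads was not tested.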

How the data were processed

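Integration sites were mapped from genomic DNA (10 µg, sheared to about 500 bp) by linker-mediated nested PCR at the vector end, 15 further cycles and paired reads of 108 nt, per the labels' protocols. The authors deposited 1 BED list per library. The build mm9 and MACS 1.4.2, with no role given, are named per the submitters' processing notes, and the aligner and the filters are not given in the sources used. Each deposited score column is 0 throughout and was not used. The whole number after each read name was taken as reads, from its values only. The minimum is 2. Distinct sites were counted and not reads, since PCR copies carry no molecular identifier and are not independent.

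The junction was the start plus 1 on the plus strand and the end on the minus strand. Collapsing removed 401 lines of Full M880A and 472 of PHD M880A, with reads summed. Equal-length shares are exact hypergeometric expectations, with no random draw. Intervals are Clopper-Pearson for shares, Wilson for classes and chromosomes, and conditional binomial for ratios. Windows were ordered after 0.5 was added to each count. By rule, the text names the 8 fullest foci per library, the 8 largest share differences, the 10 highest and lowest windows in part, and the 3 most isolated sites and longest stretches in part. Windows of most sites were added after their values were seen. The libraries, measures and thresholds were chosen with earlier results of these data known. Genes are not named, because an mm9 annotation was not used here. The measures were tested on made-up sites. Calculations used Python 3.11.15, numpy 2.4.6, pandas 2.3.3 and scipy 1.17.1.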

Additional observations from a re-analysis of the deposited data

How the results depend on the processing

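Across 70 values of 10 results under the alternatives, 40 stayed within the counting interval of the value given (or, for counts, within 1.5 times), 27 moved further and 3 changed side. The ratio of Full M880A to PHD M880A self-clustering (2.25) was 2.60 with positions within 10 bp merged, 3.03 among sites with at least 10 reads, 1.49 within 5 kb, 2.39 at unequal lengths, 1.92 with the other end of each line as the junction, and 1.90 without the sites of foci, an alternative chosen after seeing the data. Foci (336 and 29) numbered 147 and 13 among sites with at least 10 reads, 978 and 152 with at least 3 sites, and 190 and 16 with gaps of at most 500 bp. The ratio of shares in foci (10.2) was 6.69 with at least 3 sites and 8.60 at equal length. Windows with the higher Full M880A share (91) numbered 75 among sites with at least 10 reads, 128 at 500 kb, 2 at 5 Mb and 38 with at least 40 sites. Those with the higher PHD M880A share (132) numbered 68 among sites with at least 10 reads, 64 at 500 kb, 0 at 5 Mb and 6 with at least 40 sites, so that the order of the counts turned under each of these. How many windows entered under each was not counted, so these counts are not shares. The ratio in the highest WT class (1.33) was 1.20 without the sites of foci. Proximity (9.22% of Full M880A, 7.40% of PHD M880A) was 7.27% and 5.98% among sites with at least 10 reads and 26.5% and 20.5% within 5 kb, and for Full M880A 8.91% without identical positions of other libraries. The lone-site ratio (1.02) was 1.15 at 100 kb, and it turned to 0.923 at 20 kb, 0.898 at unequal lengths (a longer list has fewer lone sites) and 0.964 among sites with at least 10 reads, where the cause was not tested. The reads minimum left 25602 and 23927 sites. No paired analysis was possible because each group has 1 library. With 1 library a group, depth limits the detection of single windows and foci, and the spread between cultures is unknown.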
